A study of Mus musculus with 9 samples.

Results

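Type I and type II interferons reach their target genes through 4 receptor chains and a small family of tyrosine kinases. The genes described here encode those receptor chains (Ifnar1, Ifnar2, Ifngr1 and Ifngr2) and the whole Janus kinase family (Jak1, Jak2, Jak3 and Tyk2). The rule that picks them lists gene symbols and uses no measured value, although it was written with earlier results of these data known. All 8 were found among the 18188 genes listed for each library. RNA selected for poly(A) tails was sequenced from CD8+ T cells, the cytotoxic lymphocytes that kill infected and malignant cells, taken from mouse spleens. The libraries fall into 2 groups, 4 of the Rig1 knockout genotype (KO_Rig1 in the labels, Rig1 KO here) and 5 of the wild-type genotype (WT). RIG-I senses viral RNA in the cytosol, its signalling leads to production of type I interferon, and the series title presents it as a checkpoint on antitumor immunity by these cells. No treatment, tumour, time point, strain, age or sex is given in the labels, nor how the knockout was made, how the cells were purified or whether cells of several mice were pooled. Replicates carry a number only, so a p-value here sets a group difference only against the spread among these samples, and that spread may be technical.

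IFNAR1 and IFNAR2 form the receptor for interferon alpha and beta. IFNAR1 carries TYK2 on its cytoplasmic tail and IFNAR2 carries JAK1. IFNGR1 binds interferon gamma and carries JAK1, while IFNGR2 completes that receptor and brings JAK2. JAK3 serves the common gamma chain of the receptors for interleukins such as IL-2, IL-7 and IL-15, on which T cells depend for survival and proliferation. Ligand binding brings the kinases together, and they phosphorylate the receptor tails and then the STAT transcription factors. In T cells the amount of IFNGR2 at the surface is a known control point for the response to interferon gamma.

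The start regions of the 5 genes whose levels did not overlap between the genotypes are shown as the sequence context of those differences. Each is the 250 bases before the annotated transcription start, from RefSeq on the mouse build GRCm38.p6, read 5′ to 3′ on the strand of the gene. Capitals mark every match, on either strand, to any of 7 motifs: the GC box GGGCGG, the ETS site CCGGAAG, the interferon gamma activated site TTCNNNGAA, the core of the interferon-stimulated response element (GAAA, any 2 bases, GAAA), the AP-1 site TGANTCA, the cyclic AMP response element TGACGTCA and the CCAAT box. Overlapping matches were counted separately. The windows are chr16:91484965-91485214 on the plus strand for Ifnar1, chr16:91372533-91372782 on the plus strand for Ifnar2, chr4:101265224-101265473 on the minus strand for Jak1, chr10:19591699-19591948 on the plus strand for Ifngr1 and chr16:91546809-91547058 on the plus strand for Ifngr2.
Ifnar1: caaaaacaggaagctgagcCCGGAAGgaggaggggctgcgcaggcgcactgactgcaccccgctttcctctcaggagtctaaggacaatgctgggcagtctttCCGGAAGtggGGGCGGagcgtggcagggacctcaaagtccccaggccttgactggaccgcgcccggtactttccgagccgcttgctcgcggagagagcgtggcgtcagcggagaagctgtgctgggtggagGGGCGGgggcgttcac
Ifnar2: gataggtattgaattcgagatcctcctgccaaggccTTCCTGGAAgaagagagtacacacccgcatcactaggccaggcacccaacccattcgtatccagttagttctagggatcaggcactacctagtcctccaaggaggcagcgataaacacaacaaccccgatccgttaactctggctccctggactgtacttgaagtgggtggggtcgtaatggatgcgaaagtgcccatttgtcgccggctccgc
Jak1: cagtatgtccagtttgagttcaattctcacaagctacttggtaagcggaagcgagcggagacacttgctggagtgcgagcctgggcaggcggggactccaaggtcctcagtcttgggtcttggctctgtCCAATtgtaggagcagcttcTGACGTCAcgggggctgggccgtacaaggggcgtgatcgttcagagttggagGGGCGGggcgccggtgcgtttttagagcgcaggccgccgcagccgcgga
Ifngr1: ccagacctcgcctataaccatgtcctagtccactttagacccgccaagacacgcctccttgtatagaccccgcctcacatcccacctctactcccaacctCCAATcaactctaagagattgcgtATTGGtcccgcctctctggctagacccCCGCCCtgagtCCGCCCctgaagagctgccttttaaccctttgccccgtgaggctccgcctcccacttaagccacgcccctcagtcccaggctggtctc
Ifngr2: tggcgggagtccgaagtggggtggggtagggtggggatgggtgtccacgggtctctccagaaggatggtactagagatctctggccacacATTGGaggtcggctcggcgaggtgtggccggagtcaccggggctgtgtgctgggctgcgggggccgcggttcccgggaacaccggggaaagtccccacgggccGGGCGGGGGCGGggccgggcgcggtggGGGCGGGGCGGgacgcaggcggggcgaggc

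The 5 windows shared no single motif. Ifnar1 held 2 ETS sites and 2 GC boxes, where 6.91% of 32851 mouse promoter windows hold at least 1 ETS site. Ifnar2 held 1 match to the interferon gamma activated site, present in 7.02% of windows, and no other motif of the 7. Jak1 held 1 cyclic AMP response element, present in 1.55% of windows, with 1 GC box and 1 CCAAT box. Both interferon gamma receptor genes held GC boxes and CCAAT boxes, motifs found in 32.7% and 33.8% of all windows. Ifngr1 had 2 of each, and Ifngr2 had 4 overlapping or adjacent GC boxes and 1 CCAAT box. Tyk2, whose groups overlapped, also had 2 of each, and 7 of the 8 genes held a GC box. Ifngr2 had the most GC-rich of these windows at 74.0%, against 54.0% to 65.6% in the other 4 and a median of 52.4% over all windows. The window of Jak2, whose groups overlapped, had 80.8%. None of the 8 genes had a match to the interferon-stimulated core, found in 2.98% of windows, or to the AP-1 site, found in 6.75%. A match describes letters in this window and is not evidence of binding.

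The gene that encodes RIG-I, listed as Ddx58, checks the labels. It had 32.8, 30.6, 35.2 and 34.5 TPM, the deposited unit that scales reads by gene length and library total, in the Rig1 KO libraries, against 63.9, 67.4, 67.1, 63.8 and 63.2 TPM in the WT libraries. The Rig1 KO mean was 51.1% of the WT mean, with no overlap, so the transcript was lower in every knockout library and still present there. Between 15509876 and 17866952 reads were recovered per Rig1 KO library and between 15496262 and 17893558 per WT library. All 8 listed CD8+ T cell markers with data were higher in Rig1 KO, with summed levels of 5120.0 to 5709.7 TPM against 3712 to 4282 TPM in WT, and 5 of the 8 were higher after median ratio scaling. Most genes of this list, such as those of the CD3 chains, are shared with CD4+ T cells, so the sum is not a measure of CD8+ cells alone. Markers of other spleen cells differed as well. Summed B cell markers ran from 101 to 226 TPM in Rig1 KO and from 184 to 1379.6 TPM in WT, where WT 5 was highest and WT 4 next, and 10 of 11 tested B cell markers were lower in Rig1 KO. Summed natural killer cell markers were 582 to 639.8 TPM in Rig1 KO and 216 to 356 TPM in WT, with 7 of 10 higher. Basophil and mast cell markers were 208 to 406 TPM against 11.8 to 46.6 TPM, with all 6 higher, and platelet markers were 32.0 to 40.5 TPM against 183 to 246 TPM, with all 5 lower. Macrophage and monocyte markers spanned 1649 to 1893 TPM in Rig1 KO and 809.7 to 1793 TPM in WT, with 4 of 12 higher. Erythroid markers spanned 183 to 326 TPM in Rig1 KO and 75.1 to 205 TPM in WT, with 3 of 5 tested higher. Neutrophil markers spanned 146 to 220.4 TPM against 108 to 639 TPM, with 1 higher and 2 lower of 9 tested. Dendritic cell markers spanned 286 to 359 TPM against 272 to 366 TPM, with 1 of 7 tested higher, and CD4+ T cell markers 21.8 to 25.6 TPM against 21.3 to 69.3 TPM, with 1 of 4 lower. No marker with data was at 0 in all libraries. Several of these cell types carry interferon receptors, and apart from the fits with B cell markers given below, their part in the differences was not tested. In bulk samples such as these, fewer cells of a type and less RNA per cell cannot be told apart.

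Of the 8 genes, 4 were higher in Rig1 KO cells (Ifnar1, Ifnar2, Jak1 and Jak3), 2 were lower (Ifngr1 and Ifngr2), and Jak2 and Tyk2 did not pass the test. The type I receptor chains and the type II receptor chains thus lay on opposite sides, with both chains of each receptor on the same side. The test was limma on log2(TPM + 1), adjusted by Benjamini-Hochberg across the 10540 genes tested, at a threshold of 0.05. All adjusted p-values of genes come from it. It is a broad comparison, in which 45.7% of all tested genes passed, 33.5% as higher and 12.2% as lower in Rig1 KO. The count of 6 of 8 stands beside that share, and no test of the 8 genes as a group was made. The median log2 fold change (Rig1 KO minus WT) was 0.21 over the 8 genes and 0.13 over all tested genes. Rescaling the libraries by the median ratio of their genes brought the median of all genes to 0.01 and that of the 8 genes to 0.10. On that scale 45.2% of genes passed, 23.7% higher and 21.5% lower, and the 8 genes gave 3 higher and 3 lower calls, because Jak3 no longer passed and Jak2 passed as lower.

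**Figure D1:**
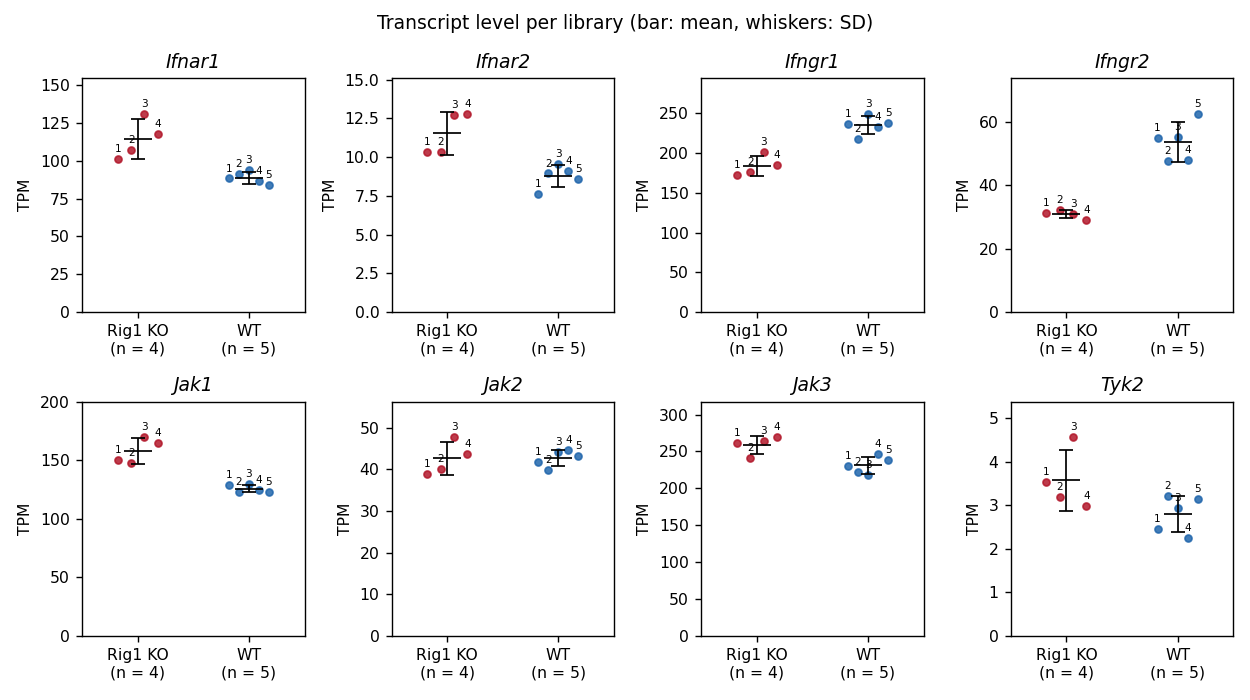
TPM of each of the 8 genes in each library, on linear axes that start at 0, with Rig1 KO (n = 4) left of WT (n = 5). Points are libraries labelled by replicate number, bars are means and whiskers are SDs. The groups are apart for Ifnar1, Ifnar2, Ifngr1, Ifngr2 and Jak1 and overlap for Jak2, Jak3 and Tyk2.

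Ifnar1, the chain of the type I receptor that carries TYK2, had 101, 107, 131 and 118 TPM in Rig1 KO libraries 1 to 4. It had 88.3, 91.2, 94.0, 86.4 and 83.8 TPM in WT libraries 1 to 5. Every Rig1 KO library was above every WT library, and the knockout libraries 3 and 4 were the highest. The means were 114 ± 13.1 TPM in Rig1 KO and 88.7 ± 3.98 TPM in WT (SD, n = 4 and 5), a 1.29-fold difference (log2 fold change 0.36, SE 0.075, adjusted p = 0.00291). Between 2602 and 3739 reads per library lay behind these values, and the spread was wider than counting gives, with a coefficient of variation of 11.4% in Rig1 KO against 1.67% from counting alone.

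Ifnar2, the chain that carries JAK1, behaved alike at a lower read depth of 379 to 548 reads per library. The Rig1 KO libraries held 10.3, 10.3, 12.7 and 12.8 TPM and the WT libraries 7.65, 8.95, 9.55, 9.11 and 8.57 TPM. Again no library of either group fell within the range of the other, and again knockout libraries 3 and 4 were above 1 and 2. The means of 11.5 ± 1.39 TPM in Rig1 KO and 8.77 ± 0.715 TPM in WT differed 1.32-fold (log2 fold change 0.36, SE 0.091, adjusted p = 0.00861). A predicted gene on the same strand, Gm21970, overlaps 73.6% of the exon bases of Ifnar2 in the GENCODE M21 annotation. Gm21970 was listed at 0.0243 to 0.249 TPM in Rig1 KO and 0.0478 to 0.240 TPM in WT, so how reads were shared between the pair makes the Ifnar2 level uncertain.

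Both type I chains passed after median ratio scaling, at log2 fold changes of 0.23 for Ifnar1 (adjusted p = 0.0120) and 0.24 for Ifnar2 (adjusted p = 0.0182). With the mean of the B cell markers as a covariate the values stayed at 0.36 for Ifnar1 and 0.37 for Ifnar2, and neither passed (adjusted p = 0.0664 and 0.113). Leaving out WT 4 and WT 5, the WT libraries with the most B cell marker RNA, gave 0.32 for Ifnar1 and 0.37 for Ifnar2, and both passed (adjusted p = 0.0168 and 0.0265).

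Ifngr1 encodes the ligand-binding chain of the interferon gamma receptor. Its levels were 173, 177, 201 and 185 TPM in the Rig1 KO libraries, against 236, 218, 249.7, 233 and 237 TPM in the WT libraries. The highest knockout library, number 3, lay below the lowest WT library. The Rig1 KO mean of 184 ± 12.6 TPM was 78.3% of the WT mean of 235 ± 11.3 TPM (log2 fold change -0.35, SE 0.059, adjusted p = 0.000762).

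Ifngr2, the chain that brings JAK2 to that receptor, had the largest absolute log2 fold change of the 8 genes. It had 31.4, 32.2, 31.0 and 29.0 TPM in Rig1 KO, against 54.9, 47.6, 55.1, 47.8 and 62.5 TPM in WT. The knockout libraries lay close together and the WT libraries were more spread, with WT 5 highest, and the gap between the groups was wider than either range. The Rig1 KO mean of 30.9 ± 1.34 TPM was 57.7% of the WT mean of 53.6 ± 6.18 TPM (log2 fold change -0.77, 95% interval -0.95 to -0.59, adjusted p = 4.00e-05). Between 703 and 1622 reads per library counted toward it.

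The lower levels of the gamma receptor chains held after each change of scaling, filter, covariate and set of libraries that was tried. Across 21 such fits the log2 fold change of Ifngr2 ran from -0.89 to -0.69 and that of Ifngr1 from -0.48 to -0.32, with an adjusted p of at most 0.00664 for Ifngr2 and 0.0357 for Ifngr1. The B cell covariate gave -0.69 for Ifngr2 and -0.34 for Ifngr1. Summed B cell markers were 402, 552, 184, 600 and 1379.6 TPM in WT libraries 1 to 5. They were 103.9, 103.6, 226 and 101 TPM in Rig1 KO libraries 1 to 4. These are values of single libraries. Apart from the fits above, the part of B cells or of other cell types in the difference was not tested.

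**Figure D2:**
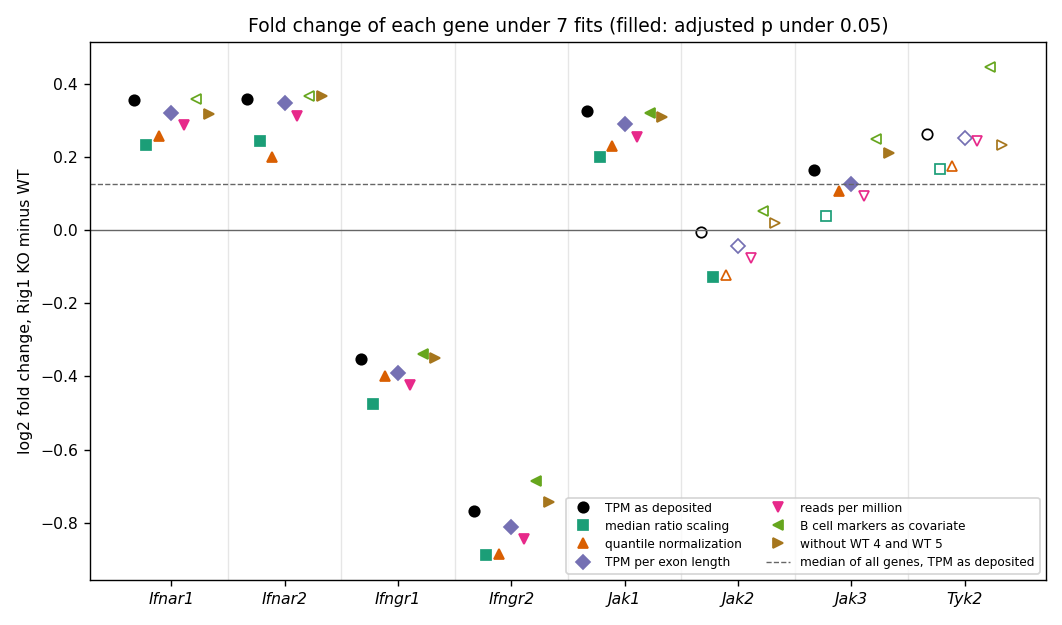
Log2 fold change (Rig1 KO minus WT) of each gene under 7 fits, with filled symbols where the adjusted p was under 0.05. The dashed line is the median of all tested genes with TPM as deposited, 0.13. Ifngr1 and Ifngr2 are filled and below 0, and Jak1 filled and above 0, under all 7; Ifnar1 and Ifnar2 are open with B cell markers as a covariate, and Jak2 changes sign between fits.

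Jak1 is the kinase common to both interferon receptors and to many interleukin receptors. Its levels were 150.1, 148, 169.6 and 165 TPM in Rig1 KO and 129, 123, 130.0, 124 and 123 TPM in WT. All knockout libraries were above all WT libraries, which spanned a narrow range. The means of 158 ± 10.9 TPM in Rig1 KO and 126 ± 3.31 TPM in WT differed 1.26-fold (log2 fold change 0.32, SE 0.054, adjusted p = 0.000773). With 19464 to 27159 reads per library Jak1 was the most deeply counted of the 8 genes, and it passed as higher in all 21 fits, at log2 fold changes of 0.20 to 0.36. The median ratio scaling gave the 0.20 (adjusted p = 0.00279).

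Jak2, the kinase of IFNGR2, had 38.9, 40.2, 47.7 and 43.8 TPM in Rig1 KO, against 41.8, 39.8, 44.3, 44.7 and 43.2 TPM in WT. The Rig1 KO libraries surrounded the WT range on both sides. The means were 42.6 ± 3.94 TPM and 42.7 ± 1.99 TPM in Rig1 KO and WT, with a 95% interval of the log2 fold change of -0.16 to 0.14 (adjusted p = 0.947). That interval covers changes of either sign, and the sign itself depended on the fit. After median ratio scaling, which puts the median of all genes at 0.01, the value was -0.13 (adjusted p = 0.0316).

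Jak3, the partner of the common gamma chain, had 261, 241, 265 and 269 TPM in Rig1 KO and 231, 222, 219, 247 and 239 TPM in WT. Rig1 KO 2 lay inside the WT range, below WT 4. The means of 259 ± 12.2 TPM in Rig1 KO and 231 ± 11.8 TPM in WT differed 1.12-fold (log2 fold change 0.16, SE 0.054, adjusted p = 0.0309), which is close to the median of all tested genes. The call did not hold after median ratio scaling (0.04, adjusted p = 0.512), as reads scaled by library total alone (0.09, adjusted p = 0.110) or with the B cell covariate (0.25, adjusted p = 0.0638). Leaving out Rig1 KO 1, Rig1 KO 3, Rig1 KO 4, WT 1, WT 2 or WT 3 also ended it, with adjusted p-values of 0.0672, 0.0695, 0.0865, 0.0596, 0.0694 and 0.0715.

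Tyk2, the kinase of IFNAR1, had the fewest reads of the 8 genes, with 99 to 159 per library. It had 3.54, 3.20, 4.55 and 2.99 TPM in Rig1 KO and 2.46, 3.21, 2.94, 2.26 and 3.13 TPM in WT. The groups overlapped, and Rig1 KO 3 was the highest library. The means were 3.57 ± 0.695 TPM in Rig1 KO and 2.80 ± 0.420 TPM in WT (log2 fold change 0.26, 95% interval -0.01 to 0.53, adjusted p = 0.104). Counting alone gives a coefficient of variation of 8.54% in Rig1 KO and 9.40% in WT at this depth, against 19.5% and 15.0% observed. The antisense gene 1700084C06Rik covers 94.3% of the exon bases of Tyk2. No value was listed for that antisense gene, unlike Gm21970. Whether counting used strand or included it was not given, so reads from the pair cannot be told apart and the Tyk2 level is uncertain.

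Groups that did not overlap were found for 5 of the 8 genes, against 38.1% of all tested genes. In 4 of these 5, Ifnar1, Ifnar2, Jak1 and Ifngr1, knockout libraries 3 and 4 were above 1 and 2, and the same held for Jak2, whose groups overlapped. Within each genotype, over the 9 libraries, Ifngr1 and Jak2 varied most closely together (Pearson r of deviations from the group means, 0.904), and Ifnar1 with Jak1 followed within the pairs that differed in the same direction (0.859). Ifngr1 and Ifngr2, both lower in Rig1 KO, varied with r = 0.292. Genes measured in 1 library share its scale and its cell makeup, so these values are descriptions.

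Ratios of partner genes within a library do not depend on how that library was scaled. The size of a ratio does depend on the gene lengths behind TPM, here genomic spans with introns. Only its difference between the genotypes is read here, not which gene of a pair is more abundant. The ratio of the receptor chains for interferon gamma, Ifngr1 to Ifngr2, was 5.50, 5.49, 6.49 and 6.36 in Rig1 KO, against 4.30, 4.58, 4.53, 4.87 and 3.80 in WT. All knockout libraries were above all WT libraries, because Ifngr2 was lower by more than Ifngr1 was. The mean ratios of 5.96 ± 0.538 in Rig1 KO and 4.42 ± 0.402 in WT differed 1.35-fold (two-sided exact permutation p = 0.00794, adjusted over 5 ratios p = 0.0198). This is the smallest p that the 126 splits of these libraries allow.

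The ratio of the type I chains, Ifnar1 to Ifnar2, showed no such shift. It was 9.80, 10.4, 10.3 and 9.19 in Rig1 KO and 11.5, 10.2, 9.84, 9.48 and 9.78 in WT, with overlapping groups (exact permutation, adjusted p = 0.863). The interferon alpha and beta receptor chains were 1.29-fold (Ifnar1) and 1.32-fold (Ifnar2) higher in Rig1 KO.

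Among the kinases, the Jak1 to Jak2 ratio was 3.86, 3.67, 3.56 and 3.77 in Rig1 KO, against 3.08, 3.09, 2.94, 2.79 and 2.85 in WT. The groups were apart, with means of 3.72 ± 0.129 in Rig1 KO and 2.95 ± 0.136 in WT, a 1.26-fold difference (exact permutation p = 0.00794, adjusted p = 0.0198). JAK1 and JAK2 are the pair that works at the interferon gamma receptor. With WT 1, WT 2, WT 4 or WT 5 left out, both this ratio and that of Ifngr1 to Ifngr2 stayed apart between the genotypes. The adjusted p was then 0.0714 by exact permutation, from the smallest p that the fewer splits allow. The Jak1 to Jak3 ratio was 0.575 to 0.641 in Rig1 KO and 0.504 to 0.595 in WT, overlapping ranges that did not pass after adjustment (exact permutation, adjusted p = 0.0661). The Jak1 to Tyk2 ratio, of the pair at the type I receptor, was 37.2 to 55.2 in Rig1 KO and 38.4 to 55.2 in WT (exact permutation, adjusted p = 0.881).

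**Figure D3:**
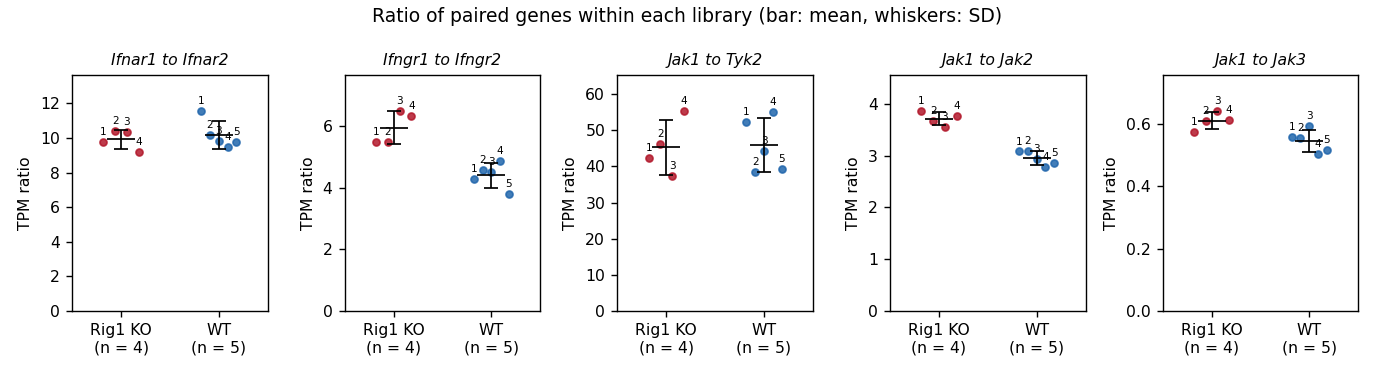
TPM ratios of partner genes within each library, on linear axes that start at 0, with Rig1 KO (n = 4) left of WT (n = 5). Points are libraries labelled by replicate number, bars are means and whiskers are SDs. Ifngr1 to Ifngr2 and Jak1 to Jak2 are apart between the genotypes, and the other 3 ratios overlap. The size of each ratio depends on the genomic spans used as gene lengths and does not show which gene is more abundant.

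Levels of different genes can be compared only per length, and the deposited TPM used the genomic span with introns. Recomputed as TPM per exon length, the order was the same in both genotypes, from Jak1 through Ifngr1, Jak3, Jak2, Ifnar1, Ifngr2 and Ifnar2 to Tyk2. Jak1 stood at 887 (852 to 930.1) in Rig1 KO and 726 (701 to 750.1) in WT, above 99.3% of all genes. Ifngr1 followed with 424 (404 to 454) in Rig1 KO and 556 (526 to 592) in WT. Jak1 also has the longest span of the 8 genes, and whether reads in introns were counted is not given, so its place relative to shorter genes holds for this scale only.

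Jak3 had 248 (238 to 254) in Rig1 KO and 228 (215 to 241) in WT on the same exon-length scale, and Jak2 had 186 (172 to 204) and 192 (182 to 199). Ifnar1 had 153 (138 to 172) in Rig1 KO and 122 (114 to 129.7) in WT. In the knockout libraries the top of the Ifnar1 range and the bottom of the Jak2 range were both near 172, whereas in WT a gap separated them. Ifngr2 had 54.8 (50.7 to 58.6) in Rig1 KO and 97.3 (86.2 to 112) in WT. Ifnar2 had 40.8 (37.0 to 44.7) in Rig1 KO and 31.9 (27.9 to 34.7) in WT. The distance between Ifngr2 and Ifnar2, the chain of each receptor with the lower value on this scale, was therefore small in Rig1 KO and larger in WT. Tyk2 was last with 5.07 (4.19 to 6.33) in Rig1 KO and 4.09 (3.27 to 4.77) in WT, near the middle of all genes. No neighbours in the order had overlapping ranges in either genotype. Other annotated genes overlap 73.6% of the exon bases of Ifnar2 and 94.3% of those of Tyk2, so the levels and places of these genes are uncertain.

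**Figure D4:**
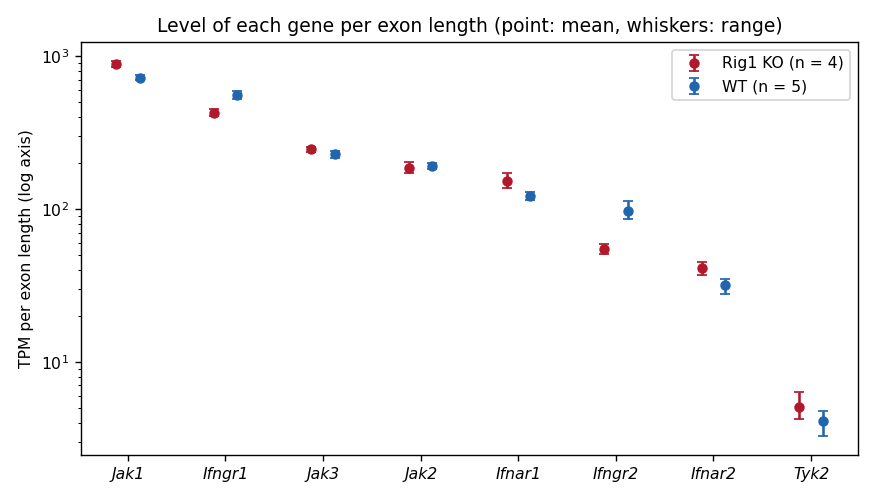
TPM per exon length of each gene on a log axis, with Rig1 KO (n = 4) left of WT (n = 5) for each gene. Points are means and whiskers the lowest and highest library. The order from Jak1 to Tyk2 is the same in both genotypes, and Ifngr2 and Ifnar2 are closer together in Rig1 KO.

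Of the 8 genes, 3 sit in 1 cluster of receptor genes on chromosome 16, in the order Ifnar2, Il10rb, Ifnar1 and Ifngr2 among the listed genes, all on the plus strand. Il10rb encodes the shared chain of the receptors for IL-10, IL-22 and interferon lambda. Ifnar1 and Ifngr2, next to each other in this order, differed in opposite directions. Il10rb, between the type I chains, had 36.3 ± 1.60 TPM in Rig1 KO and 30.6 ± 2.11 TPM in WT and was higher (log2 fold change 0.24, adjusted p = 0.00948). After median ratio scaling Il10rb no longer passed (0.12, adjusted p = 0.143).

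Past Ifngr2 the next listed gene is Tmem50b, with means of 15.3 TPM in Rig1 KO and 17.4 TPM in WT (log2 fold change -0.18, adjusted p = 0.0761). Gart, an enzyme of purine synthesis, had 52.0 ± 3.40 TPM in Rig1 KO and 44.5 ± 2.22 TPM in WT and was higher (log2 fold change 0.22, adjusted p = 0.0128). Son, a splicing cofactor, had means of 319 TPM in Rig1 KO and 309 TPM in WT (0.04, adjusted p = 0.620). Donson, a replication protein, had 30.2 ± 2.69 TPM in Rig1 KO and 24.1 ± 1.27 TPM in WT and was higher (0.31, adjusted p = 0.00431). In all, 3 of the 6 tested neighbours passed as higher and 0 as lower, beside 33.5% and 12.2% of all tested genes. By median ratio scaling 1 was higher (Donson) and 1 lower (Tmem50b, the gene next to Ifngr2). Without Rig1 KO 3, 1 neighbour passed as lower with TPM as deposited as well. Of the other 5 genes, Ifngr1 lies on chromosome 10 and Jak1 on chromosome 4 like Ddx58, while Jak2, Jak3 and Tyk2 lie on chromosomes 19, 8 and 9.

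**Figure D5:**
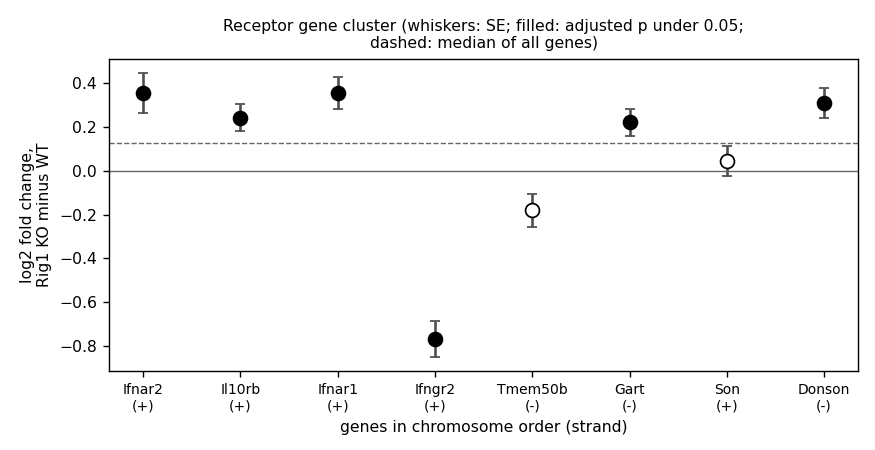
Log2 fold change (Rig1 KO minus WT) of the tested genes of the receptor cluster on chromosome 16, in chromosome order with the strand below each name. Whiskers are SEs, filled points passed an adjusted p of 0.05 and the dashed line is the median of all tested genes. Ifnar2, Il10rb and Ifnar1 lie above 0 and Ifngr2 at -0.77; Rcan1, the last gene of the list, is not drawn.

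The ligand of the gamma receptor was lower in Rig1 KO, as were both of its receptor chains. Ifng, which encodes interferon gamma and is made by activated T and natural killer cells, had 21.4 ± 5.13 TPM in Rig1 KO and 70.2 ± 11.4 TPM in WT, a 3.28-fold lower level in Rig1 KO (log2 fold change -1.68, adjusted p = 1.47e-05). It was the only interferon gene tested. Of the 21 interferon genes listed, 4 had a row, and the 3 others with a row (Ifna1, Ifna7 and Ifnab) stayed below the filter on low values. Natural killer cell markers, another source of Ifng, were higher in Rig1 KO, and their part in the Ifng level was not tested.

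Other chains of receptors that use these kinases differed in both directions, a list that includes chains which do not bind a kinase themselves, such as Il15ra. Of 23 tested chains 9 were higher and 4 lower, with 10 not passing, beside 33.5% higher and 12.2% lower among all tested genes. Their median log2 fold change of 0.13 equalled that over all tested genes to 2 decimals. Il7r, the IL-7 receptor of naive and memory T cells, had 604 ± 63.0 TPM in Rig1 KO and 274 ± 31.2 TPM in WT (log2 fold change 1.14, adjusted p = 6.35e-06). Il27ra, whose ligand acts on T cells through JAK1, had 404 ± 12.5 TPM in Rig1 KO and 274 ± 12.6 TPM in WT (0.56, adjusted p = 1.12e-05). Il15ra, which presents IL-15, was at 13.6 ± 0.656 TPM in Rig1 KO and 7.08 ± 0.999 TPM in WT (0.86, adjusted p = 4.87e-05). The chain with the strongest fall was Il20rb of the IL-20 receptor family, at 2.91 ± 0.694 TPM in Rig1 KO and 10.7 ± 1.63 TPM in WT (-1.59, adjusted p = 8.12e-06). Median ratio scaling gave 8 higher and 7 lower.

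Downstream of the kinases, the 8 genes for the STAT factors and their partner Irf9 gave 4 higher and 0 lower, beside 33.5% and 12.2% of all tested genes, with a median of 0.12. Stat4, the factor of IL-12 and of type I interferon in T cells, had 9.71 ± 1.34 TPM in Rig1 KO and 5.63 ± 0.413 TPM in WT (log2 fold change 0.68, adjusted p = 0.000220). Stat2 had 59.1 ± 6.97 TPM in Rig1 KO and 49.2 ± 4.46 TPM in WT (0.26, adjusted p = 0.0392), and Irf9, the DNA-binding partner of STAT2 in the type I response, had 218 ± 17.8 TPM in Rig1 KO and 191 ± 9.93 TPM in WT (0.19, adjusted p = 0.0353). After median ratio scaling Stat4 still passed as higher, Stat2 and Irf9 did not pass, and Stat3, Stat5a and Stat5b passed as lower. The count of 4 fell to 2 when any of Rig1 KO 3, Rig1 KO 4, WT 1, WT 2 or WT 3 was left out, and without the filter on low values.

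Inhibitors of the pathway moved in both directions, with 6 of 21 higher, 2 lower and 13 not passing, beside the same 33.5% and 12.2% of all tested genes, at a median of 0.10. Usp18, an interferon-induced protein that binds IFNAR2 and blocks JAK1 there, had 10.9 ± 2.35 TPM in Rig1 KO and 3.35 ± 0.714 TPM in WT, a 3.26-fold difference (log2 fold change 1.45, adjusted p = 4.11e-05). Socs4 of the suppressor of cytokine signalling family had 62.7 ± 3.56 TPM in Rig1 KO and 30.7 ± 1.16 TPM in WT (1.01, adjusted p = 3.54e-07), and the STAT inhibitor Pias4 had 40.9 ± 1.25 TPM in Rig1 KO and 31.6 ± 2.55 TPM in WT (0.36, adjusted p = 0.00110). Cblb, a ubiquitin ligase that restrains T cell activation, was lower at 14.2 ± 0.977 TPM in Rig1 KO and 18.4 ± 0.633 TPM in WT (-0.35, adjusted p = 0.00111). Median ratio scaling gave 4 higher and 4 lower.

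Genes for receptor turnover and adaptors gave 2 higher, 2 lower and 8 not passing of 12, beside 33.5% higher and 12.2% lower among all tested genes, at a median of -0.02. The adaptor Sh2b1, which binds JAK2, had 269 ± 17.1 TPM in Rig1 KO and 200.0 ± 6.72 TPM in WT (log2 fold change 0.43, adjusted p = 0.000122). The ubiquitin ligase Stub1 had 140.1 ± 16.7 TPM in Rig1 KO and 112 ± 7.70 TPM in WT (0.31, adjusted p = 0.0108). Tsg101, which sorts ubiquitinated receptors for degradation, was lower at 23.3 ± 1.60 TPM in Rig1 KO and 28.9 ± 1.74 TPM in WT (-0.30, adjusted p = 0.00400). Fbxw11, a subunit of a ubiquitin ligase, was lower at 7.55 ± 1.02 TPM in Rig1 KO and 9.12 ± 0.533 TPM in WT (-0.25, adjusted p = 0.0403). Only 1 of the 12 passed as lower when Rig1 KO 1, 2 or 4 or WT 1, 3, 4 or 5 was left out, and median ratio scaling gave 2 higher and 5 lower.

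The tested genes whose profile over the 9 libraries was most like each of the 8 were found by Pearson's r of log2(TPM + 1) over 10298 genes. Ifnar1 was most like Sdhc (r = 0.988) and Bod1l (0.984), and Ifnar2 most like BC049715 (0.989) and Ikbkg (0.984). Ifngr1 was most like Wdr70 (0.990) and Serinc1 (0.989). Ifngr2 was most like Ramp3 (0.994) and Sarnp (0.985). Jak1 was most like Znrf2 (0.995) and Zfp871 (0.994), Jak3 like Dhcr7 (0.985) and Nelfb (0.978), and Jak2 like Ergic2 (0.968) and Stx8 (0.952). Tyk2, with the fewest reads, had the lowest such values, with Bbip1 (0.922) and Gne (0.915). All libraries share their scale and genotype within a group, so these values are descriptions of profile and carry no test.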

How the data were processed

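Per the labels' protocols, total RNA was taken up in TRIzol, poly(A) RNA was isolated and libraries were prepared with NEBNext reagents. Per the file headers, the authors deposited 1 TPM value per gene and library. The submitters' processing notes name fastp (read trimming), featureCounts (counting) and the genome build GRCm39 (mm39), without versions. The aligner, annotation, strand setting and whether intronic reads were counted are not given in the sources used here. TPM values kept enough digits to recover whole reads for 100% of genes (relative tolerance 2e-12). Recovered reads are the smallest whole numbers in the ratios of a gene's values. They, and the library totals, are thus lower bounds where the reads of a gene share a divisor. The implied lengths equalled the genomic span, introns included, within 1% for 99.1% of 10196 genes, so TPM levels are not comparable between genes.

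Gene names, exon lengths, overlaps and gene order came from GENCODE M21 (GRCm38), an older build than the authors', so the only coordinates printed are those of the RefSeq promoter windows (GRCm38.p6). A gene entered the test with TPM of at least 1 in 4 or more libraries. Testing was done with limma 3.58.1 in R 4.3.3 on log2(TPM + 1), with a mean-variance trend, no covariates, both groups, two-sided, Benjamini-Hochberg over all 10540 tested genes. The log2 fold change understates changes of low genes. Ratios were compared by exact permutation over the 126 splits. Values are mean ± SD over 4 Rig1 KO and 5 WT libraries. The script was tested on simulated data.

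The 8 genes are defined by symbol, with no measured value in the rule, but they, the gene lists and the tests were chosen with earlier results of these data known, so the choice was not independent of the data. Of 203 list symbols 173 had a row. Named were all 8 genes, Ddx58, up to 4 passing genes with the smallest p per pathway list, all tested cluster genes and the 2 most alike genes per member, without predicted genes. A gene that the naming rule covers is not reported here. Stat3, Stat5a, Stat5b, Gm21970 and the antisense gene were named after their values or annotation were seen. Other settings tried were other pseudocounts (0.1, 0.5), other filters (none, or mean TPM of 5 or more), scaling by median ratios or quantiles, totals without immunoglobulin, haemoglobin and mitochondrial genes, exon lengths, a replicate block, the mean of the B cell markers as a covariate, leaving out WT 4 with WT 5 and each library in turn. Scaling of reads by library total, without length, was added after seeing the data.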

Additional observations from a re-analysis of the deposited data

How the results depend on the processing

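Ifngr1, Ifngr2 and Jak1 kept their direction and call under all 21 alternatives, and Tyk2 passed under none of its 20, at log2 fold changes of 0.16 to 0.45. Tyk2 fell below the filter at a mean TPM of 5. Ifnar1 (0.23 to 0.41) and Ifnar2 (0.20 to 0.40) lost the call with the B cell covariate alone. That covariate left 2853 genes passing (2232 higher, 621 lower), of the 8 genes 3 (1 higher), and 4 list genes lower, among them 1 other receptor chain and 0 turnover genes, with 1 cluster neighbour higher. Genes passing as lower numbered 2267 by median ratio scaling, 2192 by quantile normalization and 2128 with reads scaled by library total alone, against 1291, and list genes passing as lower numbered 21 under each of these and 14 with exon lengths, against 9. Jak2 turned positive with the B cell covariate (0.052), with totals lacking immunoglobulin, haemoglobin and mitochondrial genes (0.012) and without WT 4 and WT 5 (0.020). The cause was not tested. The Jak1 to Tyk2 ratio turned positive with a pseudocount of 1 (0.062) and without WT 4 and WT 5 (0.0058). Without those libraries the log2 differences of Ifngr1 to Ifngr2 (0.41) and Jak1 to Jak2 (0.29) no longer passed (exact permutation, adjusted p = 0.0714 for each). Both ratios still stayed apart between the genotypes, and each p before adjustment was the smallest that the fewer splits allow. The loss of the call therefore does not measure dependence on WT 4 and WT 5.

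Leaving out each library in turn gave 3993 to 4788 genes passing (2795 to 3592 higher, 1098 to 1282 lower), 5 to 6 of the 8 genes (3 to 4 higher, 2 lower) and 28 to 32 list genes (20 to 24 higher, 8 to 12 lower). The log2 fold change of Jak2 ran from -0.060 to 0.035. Log2 ratio differences ran from -0.058 to 0.013 for Ifnar1 to Ifnar2, 0.38 to 0.47 for Ifngr1 to Ifngr2, -0.12 to 0.070 for Jak1 to Tyk2, 0.31 to 0.35 for Jak1 to Jak2 and 0.13 to 0.19 for Jak1 to Jak3. The last passed without WT 3 (0.19, adjusted p = 0.0476). The 2 ratios that had passed did so without WT 3 (adjusted p = 0.0476 for each) and without any 1 Rig1 KO library (0.0446), and not without WT 1, WT 2, WT 4 or WT 5 (0.0714), by exact permutation. In each of these fits both ratios stayed apart between the genotypes, at the smallest p before adjustment that the splits allow. Whether they passed followed the number of splits and how many ratios were at that p, and does not measure dependence on a library.

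Deviations from the group means correlated at -0.0996 to 0.0972 between same-numbered libraries and at -0.162 to 0.152 between different-numbered ones. With so few libraries these values cannot decide whether the numbers pair them. With the replicate number as a block 4777 genes passed (3595 higher, 1182 lower), with 4 of the 8 genes higher and 2 lower, and 25 list genes higher and 8 lower. Tyk2 had the largest coefficient of variation from counting alone of the 8 genes, 8.54% in Rig1 KO and 9.40% in WT. Its observed values of 19.5% and 15.0% were larger.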

Other observations

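Raver2, the neighbour that overlaps the end of Jak1 on the opposite strand over less than 1% of the Jak1 span, had 1.13 ± 0.0729 TPM in Rig1 KO and 7.53 ± 0.685 TPM in WT (SD, n = 4 and 5). It was chosen after its values were seen. Its direction was the opposite of that of Jak1.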
